A study of Drosophila melanogaster with 39 samples.

Results

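Reads of 20, 21 and 22 nt, the lengths at which Drosophila small interfering RNAs (siRNAs) and microRNAs are found, are described here across the small RNA libraries of the study. They are 3 of the 11 lengths that the length counts hold, from 20 to 30 nt. They were chosen by their length, with earlier results of these data known. They held 47082890 of the 498449078 reads in 39 libraries, or 9.45%. Small RNAs bound to FLAG-HA-tagged Piwi were sequenced in 20 libraries from ovarian somatic sheath cells (OSC), a line of cultured somatic cells of the fly ovary, and in 4 libraries from ovaries, and total small RNAs of ovaries in 15. In OSC the mutants of the specificity loop (SL) of Piwi were Piwi-LD, which lacks the loop (3 libraries), Piwi-SL(GSS), with a synthetic loop of glycine and serine (3), and Piwi-SL(Ago3), with the loop of Ago3 (3). The loops of Aub, AtAGO1, AtAGO5, HsAGO2 and HsAGO2 P>T and the mutant Piwi N>P had 1 library each, and Piwi wt had 5. Every OSC construct was transfected transiently from an episomal plasmid, so the cells also kept their own Piwi. The ovaries carried the piwi>Gal4 allele, in which Gal4 replaces Piwi under the piwi promoter. Total RNA came from null ovaries (homozygous piwi>Gal4), from null ovaries with the UAS transgene of Piwi-SL(GSS), Piwi-SL(Ago3) or Piwi wt, and from heterozygous controls over the CyO balancer, with 3 libraries each. Piwi-bound RNA came from ovaries with the LD, GSS, Ago3 or wt transgene, with 1 library each. The label of the LD ovaries names a homozygous null background, as for the other transgenes, whereas the study describes a heterozygous one for LD alone, so whether LD differs from the others in more than the loop is not settled. The labels give no age of the flies.

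Several families of small RNAs meet in fly ovaries. Endogenous siRNAs are cut from long double-stranded RNA by Dicer-2 and loaded into Ago2, and are known for a length of 21 nt. MicroRNAs are cut from hairpins by Dicer-1, are loaded mainly into Ago1 and mostly lie between 21 and 23 nt, with 22 nt a common length. PIWI-interacting RNAs (piRNAs) arise from single-stranded precursors without Dicer, are bound by Piwi, Aubergine (Aub) and Ago3, and are longer. In Piwi they lie mostly between 24 and 29 nt. A Piwi-bound library is thus a profile of piRNAs in which the shortest lengths lie at or below the edge of the main class, whereas total RNA holds every class of small RNA that the processing kept. The authors removed reads that matched microRNAs, rRNA, tRNA, snRNA and snoRNA before they counted lengths. A read of 20 to 22 nt in these tables is called of siRNA length for its length only.

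The counts give lengths and no read sequences. The constructs that the OSC comparisons turn on are shown by the forward primers with which their loops were built into the piwi coding sequence, as listed by the study (piwi lies on chromosome 2L). Capitals mark the 5′ part that the primer list sets apart from the annealing part in the primers of Ago3, GSS and LD, and no part is marked for the plant loops. The marked part need not be new sequence at every base.
Ago3: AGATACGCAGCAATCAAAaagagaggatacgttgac
GSS: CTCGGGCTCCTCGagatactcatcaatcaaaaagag
LD: GGCGGCtactcatcaatcaaaaagagag
AtAGO1: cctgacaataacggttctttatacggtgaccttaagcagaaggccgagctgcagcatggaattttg
AtAGO5: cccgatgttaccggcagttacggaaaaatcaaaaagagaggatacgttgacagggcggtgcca
A forward primer by itself does not give the length of a loop.

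Libraries held between 76259 and 60248912 reads of 20 to 30 nt, so that a share of 20–22 nt reads had an exact Clopper-Pearson 95% interval of at most 0.307 percentage points on either side, in the library of Piwi-SL(GSS) total RNA with the fewest reads. Intervals treat reads as independent and leave out the spread between libraries. PCR copies are not independent molecules, so the intervals can be too narrow even for counting error. The 20–30 nt reads covered at least 78.2% of the mapped reads of a library except in LD from OSC (42% to 56.3%) and in the heterozygous controls (3.72% to 45.8%). Whether the length counts and the mapped totals of the heterozygous controls describe the same set of reads is not known, so this coverage says nothing of where their other reads lie. Within OSC, replicate 3 of GSS and all 3 LD libraries carry barcodes with leading random bases by their labels, as do all ovary libraries, whereas the other 16 OSC libraries carry fixed barcodes. Replicates of total RNA with the same number share an index. Libraries that share one are called an index pool here, numbered as the replicates, for the index alone. The labels do not say that they were pooled or prepared together. The study describes 3 biological replicates in OSC. The labels do not say that replicates came from separate cultures or flies. A p-value here places the observed difference among those of relabelled libraries, and holds for these libraries only.

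No library had 21 nt as its most frequent length, and only 2 of 39 had more reads of 21 nt than of both neighbours. These were AtAGO1 and replicate 2 of GSS, both from OSC. The 21 nt reads outnumbered the 20 nt reads in 39 of 39 libraries, by 1.02-fold (OSC wt, replicate 4) to 6.65-fold (heterozygous total RNA, replicate 1), and 20 nt was the rarest of the 3 lengths in every library. The 22 nt reads outnumbered the 21 nt reads in the other 37. Against the mean of its neighbours, 21 nt lay between 0.550-fold (Piwi-SL(Ago3) bound in ovaries) and 1.25-fold (OSC LD, replicate 3), with a median of 0.857 over the 39 libraries. In 20 of the 39 libraries the counts rose at each step from 20 to 23 nt. A maximum at 22 nt, above both 21 and 23 nt, was present in 17 of 39 libraries. These were 1 of the 4 Piwi-bound libraries of ovaries, 13 of the 15 total RNA libraries and 3 of the 20 OSC libraries. All 17 carry random barcodes, as all ovary libraries do. In OSC they were 3 of the 4 libraries with random barcodes and 0 of the 16 with fixed ones. The part of the barcode form in this was not tested.

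**Figure D1:**
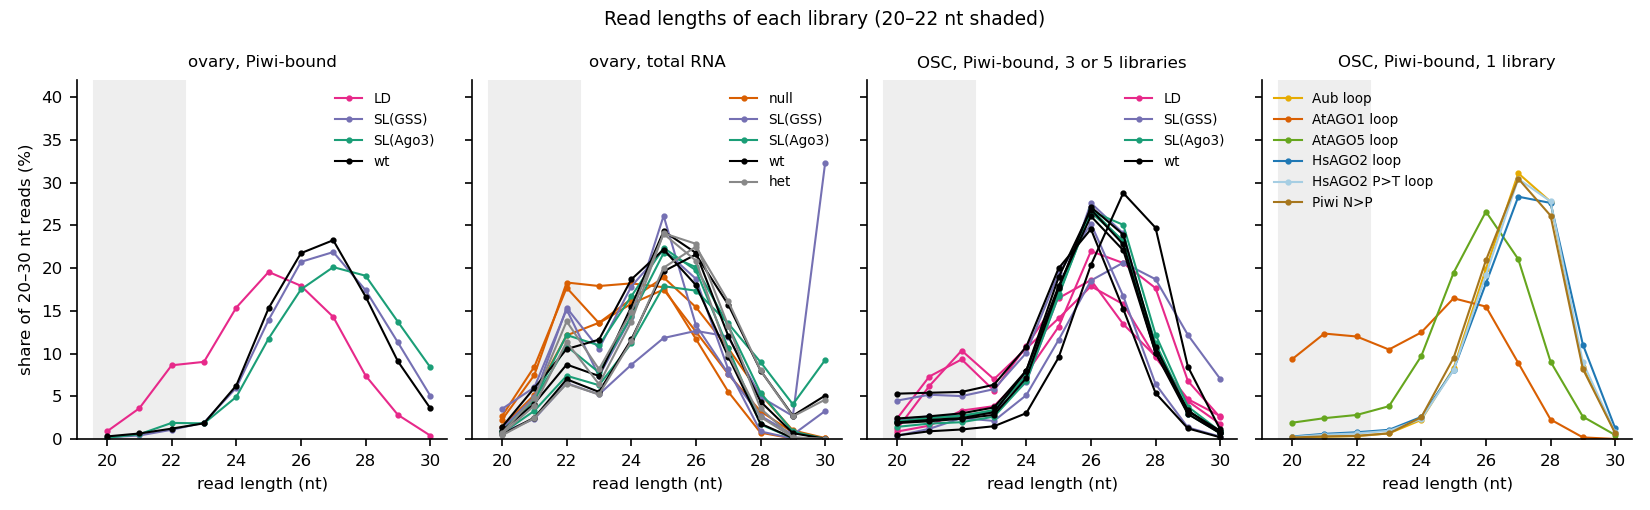
Share of 20–30 nt reads (%, y axis) at each read length (nt, x axis), 1 line per library, in Piwi-bound RNA of ovaries, total RNA of ovaries, OSC constructs with 3 or 5 libraries and OSC constructs with 1. A maximum at 22 nt is visible in 13 of 15 total RNA libraries, and the AtAGO1 line stays at 9.33% to 12.3% across the shaded lengths.

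In the OSC constructs with 3 or 5 libraries, reads of siRNA length were 2.46% to 19% of the 20–30 nt reads bound to Piwi. The mean of each mutant differed from that of wt by less than the SD among its own or the wt libraries. With Piwi-LD the 20–22 nt reads made up 17.7%, 5.78% and 19% of the 20–30 nt reads in replicates 1, 2 and 3. With Piwi-SL(GSS) they made up 7.69%, 14.7% and 4.04%, and with Piwi-SL(Ago3) 7.17%, 7.23% and 5.22%. With wt they made up 6.64%, 8.09%, 6.33%, 16.2% and 2.46% in replicates 1 to 5. Libraries of LD, GSS and wt thus spread widely and overlapped, and the Ago3 libraries lay within the wt range. The share averaged 14.2% ± 7.30 in LD, 8.82% ± 5.43 in GSS and 6.54% ± 1.15 in Ago3 (SD, n = 3 each), against 7.95% ± 5.08 in wt (SD, n = 5), which stood between GSS and Ago3. With the 4 groups put in order of their means, each mean differed from the next by less than the larger SD of the pair. Relative to 100 reads of 24–29 nt, there were 24.4, 6.58 and 25.9 reads of 20–22 nt in LD, against 7.42, 9.24, 7.05, 21.05 and 2.60 in wt.

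None of the differences between these mutants and wt passed the test at any of the 4 measures taken, which were the share of 21 nt, the share of 20–22 nt, the log2 ratio of 20–22 nt to 24–29 nt reads and the log2 ratio of 21 nt to the mean of 20 and 22 nt. For LD the 20–22 nt share was higher by 6.22 percentage points on average (exact permutation test, two-sided, adjusted p = 0.375), and 2 of 3 LD libraries lay above all 5 wt libraries. Of the raw reads, 22.1%, 31.8% and 39.4% mapped in the LD libraries, against 82.6% to 91.7% in wt. The part of this in the difference was not tested. For GSS the mean difference from wt was 0.861 points (exact permutation test, adjusted p = 0.893) and for Ago3 −1.42 points (adjusted p = 0.885, same exact test). The smallest p that 3 against 5 libraries allow is 0.0357 before adjustment. As a share of all mapped reads, rather than of 20–30 nt reads, the LD libraries held 9.97%, 3.17% and 7.99% of 20–22 nt reads, against 2.31% to 15.1% in wt, and the mean difference turned to −0.396 points.

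The 21 nt reads alone followed the same pattern. They made up 6.21%, 1.57% and 7.32% in LD, 2.67%, 5.19% and 1.2% in GSS and 2.47%, 2.46% and 1.81% in Ago3, against 2.24%, 2.67%, 2.08%, 5.42% and 0.911% in wt. The difference of LD from wt, 2.37 percentage points, did not pass the test (exact permutation test, adjusted p = 0.375). Against the mean of 20 and 22 nt, the 21 nt reads were 1.08-fold, 0.747-fold and 1.25-fold in LD, 1.06-fold, 1.09-fold and 0.846-fold in GSS and 1.05-fold, 1.03-fold and 1.07-fold in Ago3, against 1.02, 0.984, 0.980, 1.00 and 1.17-fold in wt.

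The 20 nt reads took a smaller part of the 3 lengths in the OSC libraries with random barcodes. They were 6.54% to 15.1% of the 20–22 nt reads in these 4 libraries, against 16.8% to 32.7% in the 16 with fixed barcodes. The 22 nt reads were 1.23-fold to 1.57-fold the mean of 21 and 23 nt in the 4, against 0.745-fold to 1.05-fold in the 16. All 3 LD libraries were among the 4, and replicate 3 of GSS, the other, had 1.47-fold, against 0.949-fold and 0.912-fold in the GSS libraries with fixed barcodes. Set against wt, the 22 nt excess of LD was 0.58 on the log2 scale, with all 3 LD libraries above all 5 wt libraries. This measure was added after the profiles had been seen, and did not pass the adjustment (exact permutation test, p = 0.0357, adjusted p = 0.106 over 7 comparisons). LD and the form of the barcode cannot be told apart in OSC.

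The constructs with a single OSC library gave both the highest and the lowest share of siRNA-length reads in the series. With the loop of AtAGO1, an Argonaute of Arabidopsis thaliana that binds mainly microRNAs in the plant, 33.7% of the reads were of 20–22 nt (exact Clopper-Pearson 95% interval 33.66% to 33.69%). The lengths 20, 21 and 22 nt made up 9.33%, 12.3% and 12% of its 20–30 nt reads. It held 60.3 reads of 20–22 nt per 100 of 24–29 nt, against at most 21.05 in the wt libraries. In that library 21 nt was a maximum, 1.32-fold above 20 nt and 1.03-fold above 22 nt, and 25 nt was the most frequent length. The loop of AtAGO5, a second plant Argonaute, gave 7.18%, within the wt range of 2.46% to 16.2%. The lowest shares were 0.835% with the loop of Aub and 0.872% with Piwi N>P, followed by 1.41% with HsAGO2 P>T and 1.71% with HsAGO2, the loop of a human Argonaute. These 4 lay below all 5 wt libraries. In them 27 nt was the most frequent length, as in replicate 5 of wt, the wt library with the lowest share of 20–22 nt reads, and the reads mapped at 80.6% to 84.1% of raw reads, as in that replicate (82.6%), against 90.5% to 91.7% in the other 4 wt libraries. The part of these library properties in the low shares was not tested. With 1 library per construct there is no replicate check of any of these values. Against their neighbours, 21 nt reads were 1.01-fold (Aub) to 1.157-fold (AtAGO1) in the 6 constructs, all 6 above 1 and within the wt range of 0.980 to 1.17-fold.

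**Figure D2:**
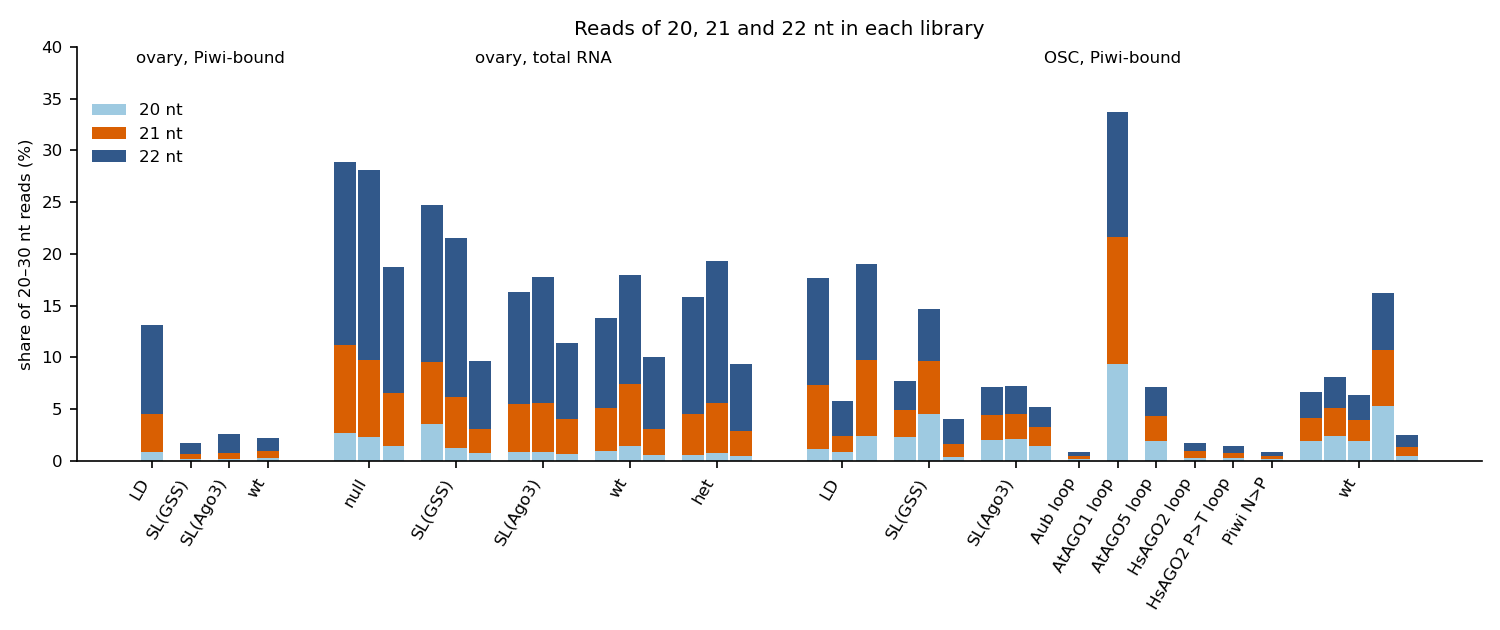
Stacked bars of the shares of 20, 21 and 22 nt reads among 20–30 nt reads (%, y axis), 1 bar per library, ordered by group along the x axis (replicates from left to right). The tallest bar is AtAGO1 in OSC (33.7%) and the lowest is Aub in OSC (0.835%), and 22 nt takes most of each bar in total RNA.

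In ovaries, RNA bound to Piwi with a natural or exchanged loop contained very few reads of siRNA length. Piwi-SL(GSS) held 1.72% and Piwi-SL(Ago3) 2.62%, against 2.19% with the wt transgene. The 21 nt reads were 0.421% and 0.564% of the reads with GSS and Ago3, against 0.655% with wt. Piwi-LD differed, with 13.1% of 20–22 nt reads. Among its 20–30 nt reads 8.63% were 22 nt, 3.61% 21 nt and 0.90% 20 nt. Its profile peaked at 25 nt, those of GSS, Ago3 and wt at 27 nt. Its 20–22 nt reads were 17.0 per 100 of 24–29 nt, against 1.89 with GSS, 3.00 with Ago3 and 2.37 with wt. With 1 library per transgene these differences have no replicate check, and the genotype of LD is stated in conflicting ways. In none of the 4 did 21 nt reach the mean of its neighbours, at 0.756-fold in LD, 0.649-fold in GSS and 0.550-fold in Ago3, against 0.854-fold in wt.

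Total RNA of ovaries held more reads of siRNA length than RNA bound to Piwi with the GSS, Ago3 or wt loop. The mean was highest in null ovaries, which lack Piwi. In null ovaries the 20–22 nt reads made up 28.9%, 28.1% and 18.7% of the 20–30 nt reads in replicates 1, 2 and 3. With the GSS transgene they made up 24.7%, 21.5% and 9.65%, with Ago3 16.4%, 17.8% and 11.4%, with wt 13.9%, 17.9% and 10.1%, and in heterozygous controls 15.9%, 19.3% and 9.37%. Replicates 1 and 2 of null ovaries lay above all 12 libraries of the other genotypes, whereas replicate 3 was lower than 3 of them. Relative to 100 reads of 24–29 nt, the 20–22 nt reads were 50.2, 51.9 and 27.7 in null ovaries, against 17.6, 25.5 and 12.7 with the wt transgene and 20.4, 26.7 and 11.6 in heterozygous controls. In replicates 1 and 2 of null ovaries 22 nt was the most frequent of all 11 lengths, at 17.7% and 18.3% of the reads, which happened in no other library. In replicate 3, at 12.1%, it was not.

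The share of 20–22 nt reads averaged 25.2% ± 5.64 in null ovaries (SD, n = 3) and 15.7% ± 4.94 in the 4 genotypes with Piwi (SD, n = 12), a difference of 9.57 percentage points (exact permutation test, two-sided, p = 0.0176, adjusted p = 0.0492 over 28 tests). The 21 nt share averaged 7.04% ± 1.70 in null ovaries and 4.15% ± 1.28 in the others, a difference of 2.89 points (exact permutation test, p = 0.0132, adjusted p = 0.0410). On the log2 scale the ratio of 20–22 nt to 24–29 nt reads was higher by 1.00 in null ovaries, a 2.00-fold ratio (exact permutation test, p = 0.0132, adjusted p = 0.0410). The share of one length rises when others fall, and a gain of 20–22 nt RNA and a loss of longer RNA cannot be told apart in these values. Likewise fewer cells of a type and less RNA per cell cannot be told apart in whole ovaries.

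All 3 results kept their direction within the index pools. Null ovaries were above each of the other 4 genotypes in each of the 3 pools, by 11.2, 8.93 and 8.61 percentage points of 20–22 nt share over the mean of the other 4. The third pool had the lowest 20–22 nt share in 5 of 5 genotypes. Null libraries also had a lower share of raw reads mapped, 82.7% to 85.2%, against 89.1% to 93.5% in the other genotypes apart from replicate 1 of GSS (80.6%), and the part of this in the result was not tested. The p-values sit near the threshold. Without replicate 1 of null the 3 differences were 7.74 points, 2.17 points and 0.87 on the log2 scale, without replicate 2 they were 8.14, 2.66 and 0.84 and without replicate 3 they were 12.8, 3.83 and 1.29, none past the adjusted threshold. With 2 null libraries against 12 the smallest p is 0.0220, or 0.0615 after adjustment, so these fits could not pass and their values alone bear on the result. Of the 12 fits that leave out a library of another genotype, the 20–22 nt share passed in 3, those without replicate 2 of the heterozygous controls and without replicate 1 or 2 of GSS (adjusted p = 0.0615 in the other 9, exact permutation test). Without the heterozygous controls the differences were 9.30 points, 2.75 points and 0.94 (adjusted p = 0.0764 each, exact permutation test).

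Against single genotypes, 3 libraries on each side cannot give p below 0.1. Null ovaries exceeded heterozygous controls by 10.4 percentage points of 20–22 nt share (exact permutation test, p = 0.2) and the wt transgene by 11.3 points, with all 3 null libraries above all 3 wt libraries (exact permutation test, p = 0.1). The Ago3 transgene differed from wt by 1.23 points (exact permutation test, p = 0.8) and GSS from wt by 4.69 points (exact permutation test, p = 0.5). In order of the means the share was 25.2% ± 5.64 in null, 18.6% ± 7.94 in GSS, 15.2% ± 3.34 in Ago3, 14.9% ± 5.06 in heterozygous and 13.9% ± 3.94 in wt ovaries (SD, n = 3 each), and each mean differed from the next by less than the larger SD of the pair. Replicate 1 of GSS is the library of 76259 reads, and in replicate 3 of GSS 32.3% of the reads were 30 nt long. Across all 5 genotypes, differences between genotypes held 46.7% of the sum of squares of the 20–22 nt share, which did not pass the test (exact permutation test, adjusted p = 0.291). With libraries permuted within the index pools, as a replicate block, the same share did pass (exact permutation test, adjusted p = 0.0369), and so did the log2 ratio of 20–22 nt to 24–29 nt reads (54.9% of the sum of squares, adjusted p = 0.0331, against 0.173 without the block, exact permutation tests).

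**Figure D3:**
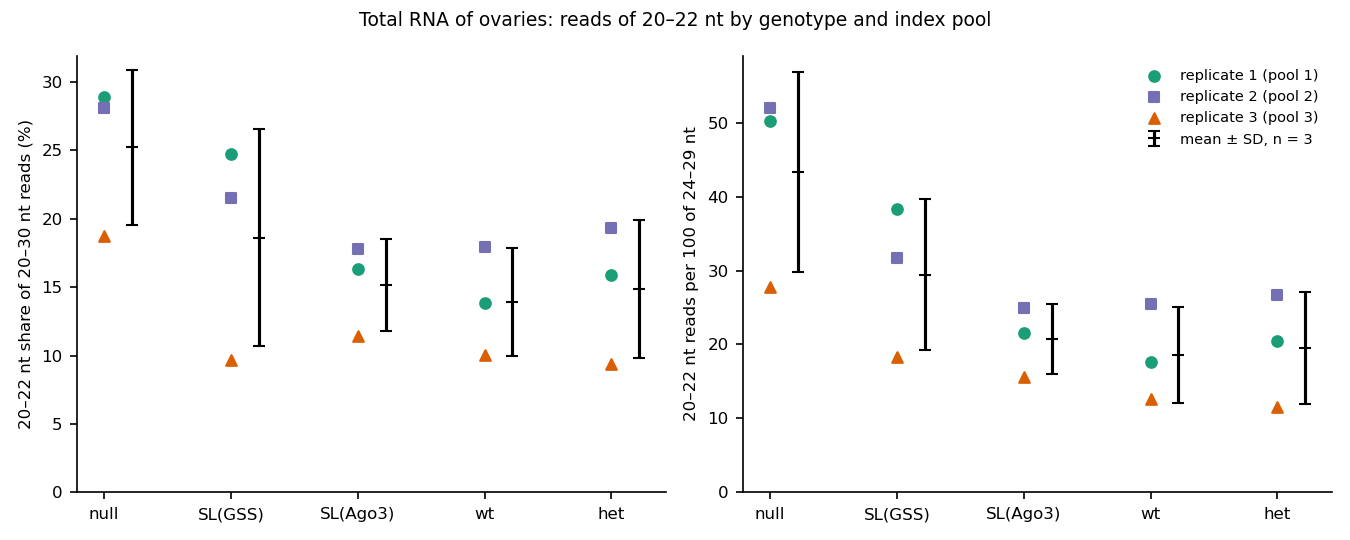
Reads of 20–22 nt in total RNA of ovaries by genotype (x axis), as a share of 20–30 nt reads (%, left) and per 100 reads of 24–29 nt (right), with a symbol for each replicate and its index pool and black bars for mean ± SD (n = 3). Null ovaries have the highest point of each pool, and the third pool the lowest point of each genotype.

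In total RNA 22 nt, not 21 nt, stood out among the 3 lengths. The 22 nt reads made up 17.7%, 18.3% and 12.1% in null ovaries, against 6.48% to 15.4% in the other 12 libraries, and 21 nt reads 8.47%, 7.49% and 5.16% against 2.37% to 6.05%. The 20 nt reads were 2.70%, 2.26% and 1.44% in null ovaries, against 0.434% to 3.52% in the others. Over the 15 libraries 21 nt reads were 0.591-fold to 1.00-fold the mean of 20 and 22 nt, and 22 nt reads 1.2-fold to 2.26-fold the mean of 21 and 23 nt. All 15 carry random barcodes. In OSC the 22 nt value was 1.23-fold to 1.57-fold with random barcodes, against 0.745-fold to 1.05-fold with fixed ones. The part of the barcode form in the 22 nt excess of total RNA was not tested. The log2 ratio of 21 nt to its neighbours differed by 0.09 between null and the other genotypes (exact permutation test, adjusted p = 0.713). This difference turned direction with 20 nt as the only neighbour and with the geometric mean of both, as given below. An equal rise of the 3 lengths in null ovaries is thus not shown, and their 20 nt shares lay within the range of the other libraries.

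The step from 20 to 21 nt, an alternative to 21 nt over the mean of both neighbours, varied among genotypes. The 21 nt reads were 3.14-fold, 3.32-fold and 3.59-fold the 20 nt reads in null ovaries, 1.72-fold, 3.93-fold and 3.18-fold with GSS, 5.19-fold, 5.43-fold and 4.78-fold with Ago3, 4.26-fold, 4.22-fold and 4.51-fold with wt and 6.65-fold, 6.60-fold and 5.67-fold in heterozygous controls. All heterozygous and Ago3 libraries were thus above all wt libraries, and those above all null and GSS libraries. The value of 1.72-fold is from the GSS library of 76259 reads. With 20 nt as the only neighbour, genotype held 75.8% of the sum of squares (exact permutation test, adjusted p = 0.0103), against 49.1% with 22 nt as the only neighbour (adjusted p = 0.273, same exact test) and 57.1% with the mean of both (adjusted p = 0.142). Without replicate 3 of wt the last was 84.9% and passed (adjusted p = 0.00352, exact permutation test), and with the geometric mean of both it was 82.0% (adjusted p = 0.00322, same exact test). The mean of both neighbours with all libraries was the main form of the measure, and did not pass. The adjusted p-values of the alternatives do not account for the choice among them.

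Piwi-bound RNA of ovaries with the GSS, Ago3 or wt transgene held far fewer reads of siRNA length than total RNA of ovaries with the same transgenes. Piwi-LD has no total RNA library and was left out. Its Piwi-bound share, 13.1%, was above replicate 3 of GSS (9.65%), Ago3 (11.4%) and wt (10.1%) total RNA and below their other libraries. The 20–22 nt share averaged 2.17% ± 0.448 in the Piwi-bound libraries of GSS, Ago3 and wt (SD over 3 transgenes) and 15.9% ± 5.18 in their 9 total RNA libraries, and all 3 lay below all 9. Total RNA held 10.8 times the Piwi-bound share with GSS, 5.80 times with Ago3 and 6.38 times with wt. The difference was −13.7 percentage points for 20–22 nt, −3.74 for 21 nt and −3.19 on the log2 scale for the ratio to 24–29 nt reads (exact permutation test, two-sided, p = 0.00909 for each, the smallest that 3 against 9 allow, adjusted p = 0.0410). By length, total RNA held 3.16 times the Piwi-bound share of 20 nt, 6.44 times that of 21 nt and 7.16 times that of 22 nt with the wt transgene. With Ago3 it held 5.13, 7.47 and 5.36 times, and with GSS 8.79, 10.5 and 11.3 times. The log2 ratio of 21 nt to the mean of its neighbours differed by −0.14 (exact permutation test, adjusted p = 0.665). Permuted within each transgene, the 3 differences had the smallest p possible, 0.0312, which is 0.0875 after adjustment (exact permutation test), so none could pass. With 2 Piwi-bound libraries against 9 the smallest p is 0.0364, or 0.102 after adjustment, so the fits without one Piwi-bound library could not pass either. The 20–22 nt difference was −12.6 to −14.5 points over all 12 fits that leave out 1 library. The 2 kinds of library also differ in how RNA was selected before cloning.

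**Figure D4:**
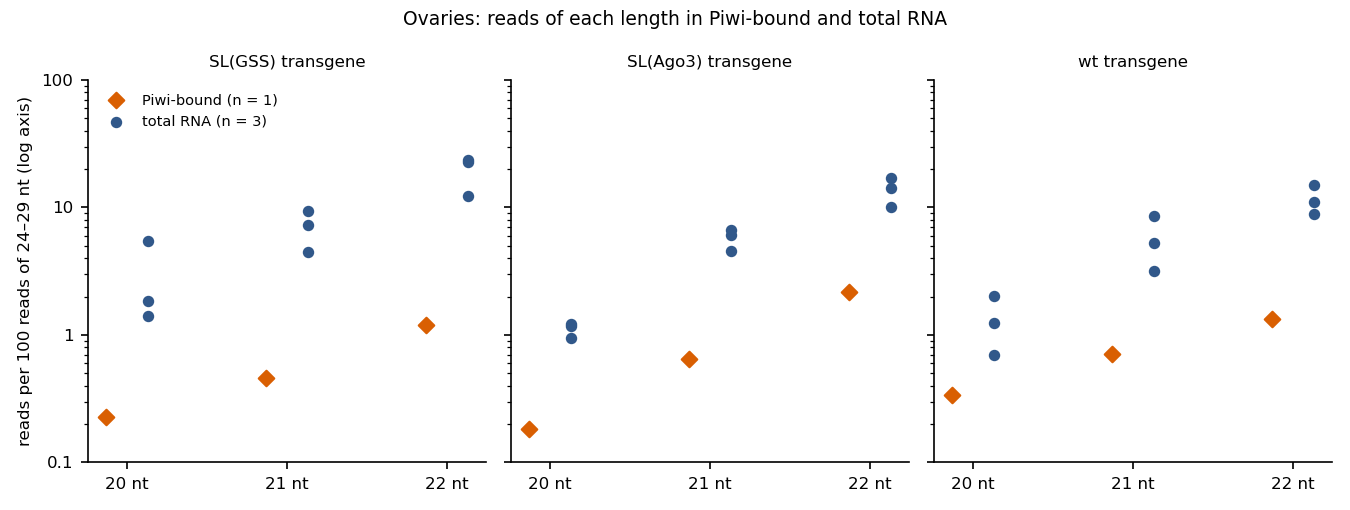
Reads of 20, 21 and 22 nt per 100 reads of 24–29 nt (y axis, log scale) in Piwi-bound RNA (diamonds, 1 library) and total RNA (circles, 3 libraries) of ovaries with the GSS, Ago3 or wt transgene. Every diamond lies below the 3 circles of its length.

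Piwi from ovaries also held fewer reads of siRNA length than Piwi from OSC with the same loops. The 20–22 nt share averaged 2.17% ± 0.448 in the 3 ovary libraries of GSS, Ago3 and wt and 7.80% ± 4.16 in the 11 OSC libraries, of which replicate 5 of wt (2.46%) overlapped the ovary range. Of the OSC constructs outside this comparison, Aub (0.835%), Piwi N>P (0.872%), HsAGO2 P>T (1.41%) and HsAGO2 (1.71%) lay below all 3 ovary libraries. AtAGO5 (7.18%), AtAGO1 (33.7%) and the LD libraries lay above them. Ovary and OSC libraries also mostly differed in the form of the barcode, as given below. The difference was −5.63 percentage points for 20–22 nt and −1.73 on the log2 scale for the ratio to 24–29 nt reads (exact permutation test, p = 0.0110 and adjusted p = 0.0410 for each). The 21 nt share was lower by 2.10 points, with all 3 ovary libraries below all 11 OSC libraries (exact permutation test, p = 0.00549, adjusted p = 0.0410). With LD included on both sides the differences were −4.25 points of 20–22 nt, −1.85 points of 21 nt and −1.24 on the log2 scale, and none of these passed (exact permutation test, adjusted p of 0.375, 0.173 and 0.142). With 2 ovary libraries against 11 the smallest p is 0.0256, or 0.0718 after adjustment, so the fits without one ovary library could not pass. The 20–22 nt difference was between −4.78 and −6.16 points over the 14 fits that leave out 1 library. Permuted within each construct, the 3 differences had the smallest p possible, 0.0208, which is 0.0583 after adjustment (exact permutation test), so none could pass.

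The 21 nt reads were also lower relative to 22 nt in ovary Piwi than in OSC. The 21 nt reads were 0.387-fold (GSS), 0.298-fold (Ago3) and 0.536-fold (wt) the 22 nt reads in ovary Piwi, against 0.490-fold to 1.03-fold in OSC, and 2.02-fold, 3.55-fold and 2.10-fold the 20 nt reads, against 1.02-fold to 3.11-fold. Against 22 nt alone the difference was −1.14 on the log2 scale (exact permutation test, adjusted p = 0.0410) and against 20 nt alone 0.89 (exact permutation test, adjusted p = 0.0923). Against the mean of both it was −0.61 (exact permutation test, adjusted p = 0.0410) and against their geometric mean −0.12 (adjusted p = 0.363, same exact test), so a deficit of 21 nt itself is not shown. The ovary libraries all carry random barcodes and 10 of the 11 OSC libraries fixed ones. Replicate 3 of GSS, the OSC library with a random barcode, had 0.490-fold of 21 nt over 22 nt, inside the ovary range, and 4.04% of 20–22 nt reads, above it. Tissue and the form of the barcode cannot be told apart for these balances, nor for the lower shares of siRNA length in ovary Piwi.

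**Figure D5:**
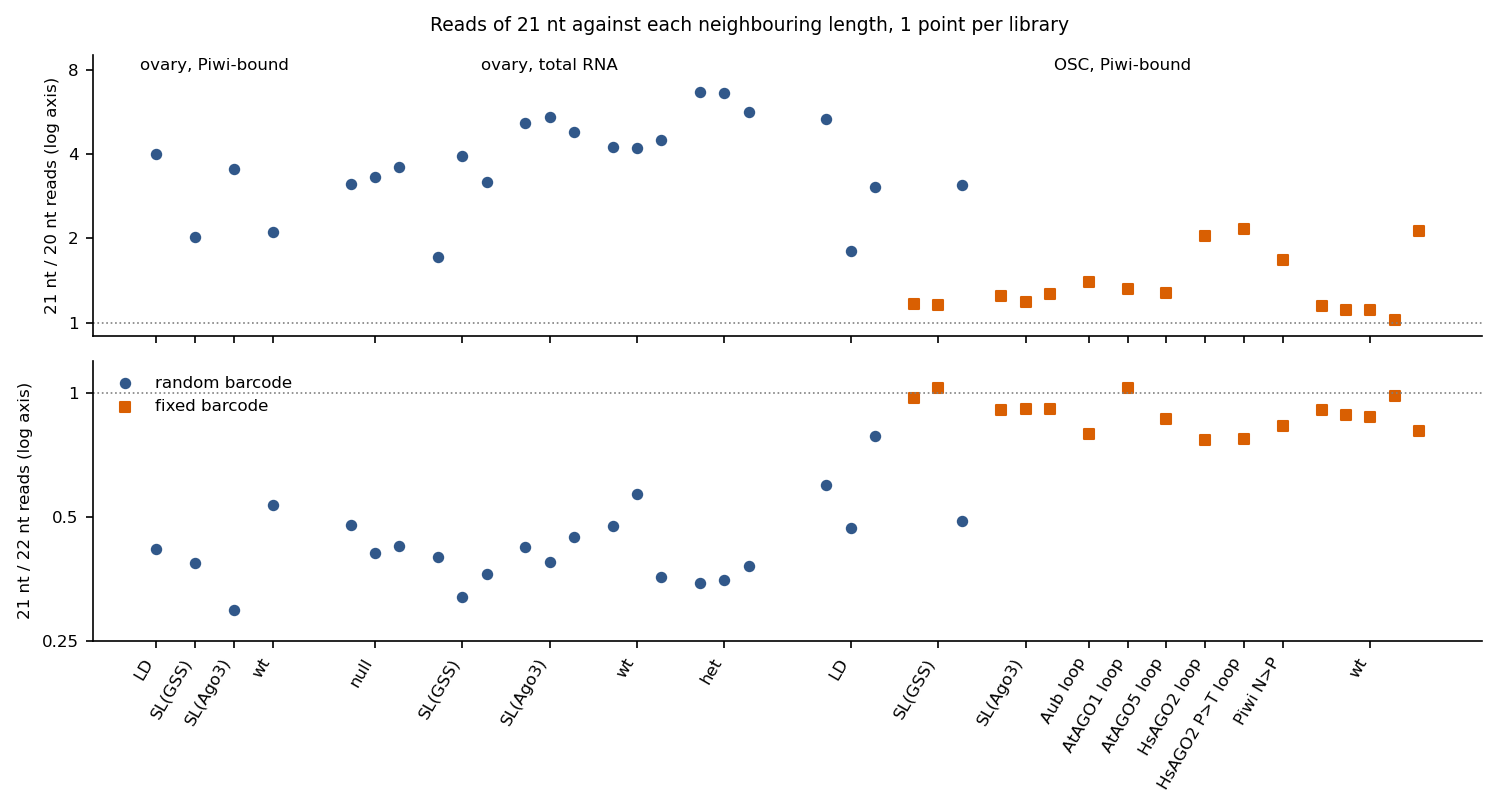
Reads of 21 nt divided by reads of 20 nt (top) and of 22 nt (bottom), on log axes, 1 point per library ordered by group, with circles for random and squares for fixed barcodes and a dotted line at equal counts. All points lie above the line in the top panel, and 2 lie above it in the bottom panel, both from OSC libraries with fixed barcodes.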

How the data were processed

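Small RNA libraries from OSC and ovaries were analysed from counts of reads by length. Before deposition the authors trimmed adapters with cutadapt, removed structural RNAs and microRNAs with STAR and mapped the rest to dm6, keeping unique reads and primary alignments of reads with up to 100 positions. The deposited counts hold reads of each length from 20 to 30 nt, and the deposited mapping statistics hold raw and mapped read numbers. Removal of microRNA reads lowers 21 to 23 nt counts by an unknown amount. Deposited counts by annotation were not used, because they are not split by length. All 39 columns matched a sample. Each library gave 1 value per measure. Groups were compared by two-sided exact permutation of libraries, with Benjamini-Hochberg adjustment over the 28 tests of the 7 comparisons that could pass 0.05 (10 passed), and the functions were tested on simulated data. Count models across features were not used because 11 lengths form a composition. No 2 replicates agreed within sampling noise. Deviations of length profiles correlated between same-numbered libraries at a median of 0.934 in total RNA, where labels give a shared index (24 of 30 pairs above 0.1), and −0.0752 in OSC (8 of 18). The lengths, groups and tests were chosen with earlier results of these data known. Every length of every group is given, each library up to 5 per group, and a maximum at a length means more reads than at both neighbours. Alternatives changed the denominator, scale, lengths, neighbours, blocks, barcode form and libraries. Python 3.11.15, numpy 2.4.6, pandas 2.3.3, scipy 1.17.1, numba 0.67.0 and matplotlib 3.10.9 were used.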

Additional observations from a re-analysis of the deposited data

Results flagged for a closer look

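Among the 5 wt libraries of OSC, the only group of a size at which a stray library was looked for, replicate 5 lay apart in 1 of 7 values examined. Its 21 nt reads were 1.17-fold the mean of 20 and 22 nt, against 0.980 to 1.02-fold in the other 4, a gap of 0.808 of the whole range where 0.71 was the limit. For a single value, chance passes this limit in about 1 in 20 groups. With 7 values examined, a pass by chance in at least 1 of them is more likely than that. This library also had the lowest 20–22 nt share of the 5 (2.46%), and its reads mapped at 82.6% of raw reads.

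The Ago3 libraries lay on opposite sides of the wt mean in the 2 settings in which this loop was replicated, for 21 nt and for 22 nt over their neighbours, and the difference between settings was not tested. Within each setting, the difference of Ago3 from wt did not pass the test (exact permutation test, adjusted p = 0.885 and 0.167 in OSC, unadjusted p = 0.6 and 0.4 in total RNA, where the smallest possible is 0.1). Against the wt mean, 21 nt over its neighbours was higher by 0.019 on average in Piwi-bound RNA of OSC (3 of 3 libraries) and differed by −0.0661 in total RNA of ovaries (3 of 3 lower). For 22 nt over its neighbours the differences were −0.0263 in OSC (3 of 3 lower) and 0.131 in total RNA (3 of 3 higher). For 21 nt, the Ago3 libraries ranged from 1.03 to 1.07-fold in OSC, against 0.980 to 1.17-fold in wt, and from 0.724 to 0.816-fold in total RNA, against 0.663 to 1.00-fold in wt. For 22 nt, Ago3 ranged from 0.892 to 0.929-fold in OSC, against 0.912 to 0.968-fold in wt, and from 1.54 to 1.75-fold in total RNA, against 1.195 to 1.74-fold in wt. Leaving out 1 library turned both differences in total RNA.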

How the results depend on the processing

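Of 627 values under other settings, 520 kept direction and side of the threshold, 57 fell below it (37 of them in designs whose smallest p cannot pass), 7 passed it and 43 turned direction. The 627 include the comparisons of 3 against 3 libraries, which were not adjusted. Those could only keep their side of the threshold or turn direction, so their part of the 520 says nothing of the threshold. Of the 10 results that passed, 9 kept their direction in every setting run. The tenth, 21 nt over its neighbours in ovary minus OSC, turned with 20 nt as the only neighbour. The comparison of LD with wt in OSC on fixed barcodes alone was not run because no LD library has one. Depth limits the GSS total RNA library of 76259 reads and LD in OSC (from 501756 reads).

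With all mapped reads as denominator, LD minus wt in OSC was −0.0158 points for 21 nt and −0.396 for 20–22 nt, Ago3 minus wt in total RNA 0.0099 points for 21 nt, and the 5 genotypes passed with 73.1% of the sum of squares for 21 nt and 74.5% for 20–22 nt, on totals that may not match the length counts of the heterozygous controls (coverage 3.72% to 45.8%). With 20–29 nt as denominator Ago3 minus wt was 0.0642 points for 21 nt, and null minus the other 4 genotypes 8.95 points for 20–22 nt, no longer past the threshold. As log2 odds these were 0.069 and 0.90, the second again not past it.

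With 20 nt as the only neighbour, 21 nt turned in direction to 1.30 (LD), −0.023 (Ago3) and 0.36 (GSS) against wt in OSC, −0.41 (null against the other 4 genotypes), −0.91 (null against heterozygous), 0.25 (Ago3 against wt, total RNA) and 0.89 (ovary minus OSC), and the 5 genotypes passed with 75.8%. With the geometric mean of both neighbours it turned to 0.37 (LD) and 0.094 (GSS) in OSC, −0.13, −0.31 and 0.055 in those 3 comparisons of total RNA, fell to −0.12 in ovary minus OSC, no longer past the threshold, and passed among the 5 genotypes with 82.0%. For 22 nt, null against wt then turned to 0.0053. With the replicate block in OSC, where numbers pair nothing, 21 nt over its neighbours was 0.0125 for LD minus wt (for GSS it was 0.063 with fixed barcodes only). In total RNA the block let the 5 genotypes pass at an equal 46.7% for 20–22 nt and 54.9% for the ratio to 24–29 nt, and it changed no other call.

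With permutation within transgene, the differences of Piwi-bound from total RNA (−3.74 and −13.7 points, −3.19 on the log2 scale) could not pass, nor within construct those of ovary from OSC (−2.10 and −5.63 points, −1.73 and −0.61 on the log2 scale), all at the smallest p possible. With LD added, ovary minus OSC was −1.85 points for 21 nt, −4.25 for 20–22 nt and −1.24 for the log2 ratio, none past the threshold. Without GSS, null minus the rest was 2.98 points for 21 nt and 10.6 for 20–22 nt, and without heterozygous controls 2.75 points, 9.30 points and 0.94, none past it. These last settings were added after the data had been seen. The cause was not tested for any of these.

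With each library left out in turn, null minus the other 4 genotypes ranged from 2.17 to 3.83 points for 21 nt, 7.74 to 12.8 for 20–22 nt and 0.84 to 1.29 for the log2 ratio. Piwi-bound minus total ranged from −3.98 to −3.52 points, −14.5 to −12.6 points and −3.36 to −3.02, and its 21 nt over neighbours from −0.31 to 0.011. Ovary minus OSC ranged from −2.27 to −1.82 points, −6.16 to −4.78 points, −1.90 to −1.57 and, for 21 nt over neighbours, −0.78 to −0.46 (22 nt over neighbours, −0.023 to 0.36). The 5 genotypes ranged from 49.95% to 84.9% for 21 nt over neighbours. In OSC, Ago3 minus wt ranged from −0.853 to 0.274 points for 21 nt, −2.79 to 0.657 for 20–22 nt and −0.48 to 0.28 for the log2 ratio. GSS minus wt ranged from −0.730 to 1.26 points, −2.09 to 3.25 points and −0.27 to 0.73, and from −0.12 to 0.063 for 21 nt and −0.013 to 0.33 for 22 nt over neighbours. LD minus wt ranged from −0.20 to 0.17 for 21 nt over neighbours. In total RNA, Ago3 minus wt ranged from −0.859 to 0.881 points, −0.715 to 3.22 points and −0.058 to 0.45, and from −0.26 to 0.037 for 21 nt and −0.010 to 0.26 for 22 nt over neighbours. GSS minus wt ranged from −0.628 to 1.26 points for 21 nt, and null minus wt from −0.26 to 0.034 for 21 nt and −0.17 to 0.10 for 22 nt over neighbours.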
